A study of Mus musculus with 36 samples.

Results

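Binding of the transcription factor Sox2 was compared between mouse embryonic stem cells kept in serum medium and the same line after 24 h in 2i medium. The comparison used the 2 peak lists that the authors deposited for antibody lot K2513, on chromosomes 1 to 19. Peaks that overlapped by at least 1 bp were merged into regions, and a region was called in a medium if it held a peak of that medium's list. This gave 18986 Sox2 regions, of the 70202 regions that 13 peak lists of the series formed when merged in the same way.

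All cells were KH2, an established mouse embryonic stem cell line built to carry inducible transgenes, grown with LIF, a cytokine that sustains self-renewal. Per the labels' protocols, maintenance was on a layer of irradiated mouse embryonic fibroblasts. The serum group was in standard serum medium. The 24 h group was moved to 2i, a medium with a pair of kinase inhibitors under which the cells take on a more homogeneous, naive character. The labels list 2 Sox2 samples in each group but do not say that they came from separate cultures. Each group has 1 deposited list, whose peak names speak of pooled replicates, so there is no value per sample and no test between media. The lists hold no expression values, so the cell type was not checked against marker genes.

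Sox2 is an HMG-box factor that binds DNA together with the POU factor Oct4 at paired recognition sites, and with the homeodomain factor Nanog it occupies many enhancers of pluripotent cells. Oct4 and Nanog are called partners below. H3K4me3, trimethylated lysine of histone H3, is found mainly at active promoters and is used here as a mark of such places. Every list was a selection by the authors from a longer set of calls, and the reads behind each peak are unknown. The serum list held 12712 peaks, with a lowest −log10 q of 17.3, a median width of 545 bp and a median fold enrichment over the control of 9.71. The 24 h list held 14703 peaks, with a lowest −log10 q of 3.69, a median width of 424 bp and a median fold enrichment of 5.89. The 2 lists therefore do not rest on one threshold, and levels were compared within a list or by rank. Where folds of both lists are printed for one region, each is on the scale of its own list.

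Fewer than 50% of the Sox2 regions were called in both media. Shared regions numbered 8358, or 44.0% (95% exact binomial interval 43.3 to 44.7%). A further 4341 regions, 22.9%, were called in serum only, and 6287 regions, 33.1%, at 24 h only. When the 24 h list was cut to as many peaks as the serum list, taking its largest −log10 q values, 7939 regions were shared (45.5%), 4760 (27.3%) were in serum only and 4731 (27.1%) at 24 h only. The near balance of the numbers in each direction follows from the cut, because nearly all shared regions hold 1 peak from each list. At equal length the shared part was 52.1% for Nanog, 50.4% for Oct4 and 73.2% for H3K4me3, each between its own serum and 24 h lists. No replicate lists exist to say how much 2 lists of one medium would share.

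The balance of serum-only against 24 h-only regions depended on where the lists end. Of the 24 h-only regions, 5851 (93.1%) had a −log10 q below the lowest in the serum list. When the serum list's lowest −log10 q was applied to both, 8985 regions were in serum only, 436 at 24 h only and 3716 in both. The direction of the imbalance turned over under that limit. The changed regions are therefore described below by where they lie and what else was called there, not by their number.

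Sharing followed rank closely. Each list was ordered by −log10 q and split into 10 equal bins. In the first bin of the serum list 98.7% of peaks met a 24 h peak, and in the last bin 32.4%. In the first bin of the 24 h list 96.7% met a serum peak, and in the last 23.8%. All of the top 100 serum peaks and 989 of the top 1000 met a 24 h peak, as did 981 of the top 1000 at 24 h with a serum peak. The first serum-only region was at rank 492 of its list and the first 24 h-only region at rank 74. In all, 912 serum-only regions (21.0%) and 1546 24 h-only regions (24.6%) ranked in the upper 50% of their list. The turnover thus lay mostly, but not wholly, among the weaker peaks.

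**Figure D1:**
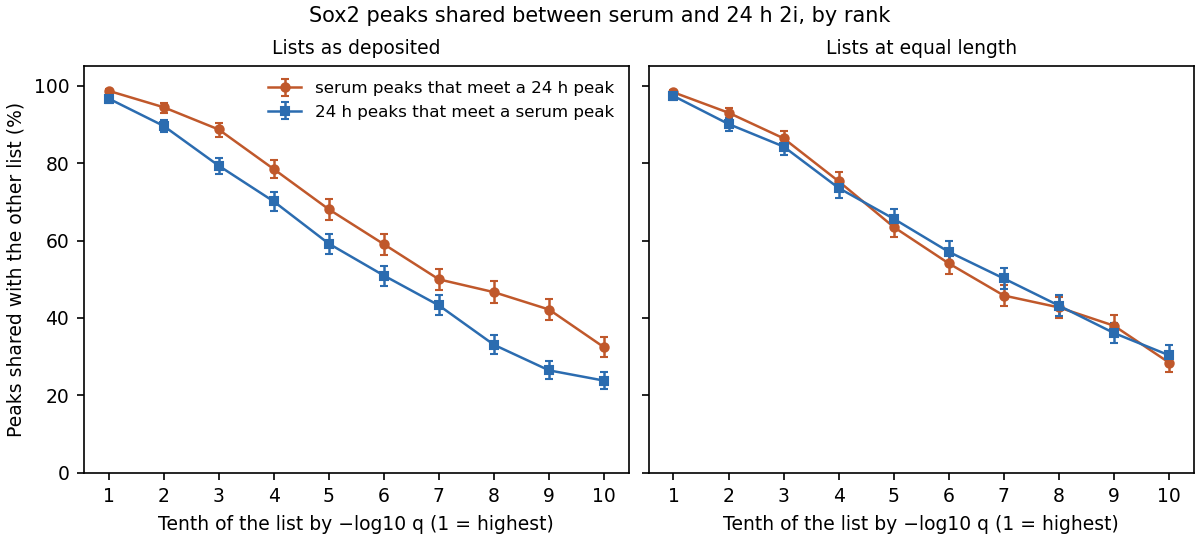
The share of Sox2 peaks that meet a peak of the other medium (vertical axis, percent) is plotted by bin of −log10 q within the list (horizontal axis, first bin highest), with lists as deposited on the left and at equal length on the right. Bars are 95% exact binomial intervals. In both lists the share falls from above 96% in the first bin to below 33% in the last when taken as deposited, and at equal length the curves nearly coincide.

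Changed regions were weaker and narrower than shared ones within their own list. The median fold enrichment in serum was 7.94 for serum-only and 11.5 for shared regions, with median peak widths of 508 and 565 bp. At 24 h it was 5.06 for 24 h-only and 7.27 for shared regions, with widths of 367 and 483 bp. Strength and width thus move with every comparison of the classes below. Shares were therefore also taken within bins of rank. Over the 19 chromosomes the shared part ran from 41.2 to 46.2%. The serum-only part ran from 19.5% on chromosome 16 to 27.7% on chromosome 11, and the 24 h-only part from 29.5% on chromosome 11 to 37.8% on chromosome 16.

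The serum-only regions with the largest −log10 q were places where Nanog was called in both media. The first was chr17:29587840-29588620 in mm9, with a fold enrichment of 18.5 and a −log10 q of 217, Oct4 in serum only, and no H3K4me3. Next came chr9:117072079-117072669, at a fold enrichment of 28.1, without Oct4 in either medium. The remaining regions, chr10:30457036-30457600, chr13:114014167-114014824 and chr3:141511992-141512588, had fold enrichments of 21.9, 28.3 and 30.7, and Oct4 in serum only. Of these 5 regions, 4 thus lost the Oct4 call together with the Sox2 call while the Nanog call of the first antibody lot remained. With the second Nanog lot the call was in serum only at 4 of the 5. Sox2 was called again after 3 passages in 2i at 4 of them, chr13:114014167-114014824 being the exception.

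The leading 24 h-only regions carried Oct4 and Nanog at 24 h, as did 23.0% of the whole class. At chr9:35112624-35113270 the −log10 q was 177, rank 74, but the fold enrichment only 10.5. This region also carried H3K4me3 at every time point, Oct4 in both media, and Nanog at 24 h only. Its low fold for its −log10 q, Oct4 state and mark were like those of chr2:98505040-98505529, a place of commonly high signal named below. The part of such signal in this call was not tested. At chr1:97498385-97499108 the fold enrichment was 26.9, and at chr17:57642472-57643397 it was 37.7, the largest of any 24 h-only region. Both had Oct4 and Nanog in both media, so Sox2 was called there where its partners already were. At chr2:44330203-44330866 the fold enrichment was 24.8, with Nanog in both media and Oct4 at 24 h only, and at chr16:16277395-16277913 it was 13.4, with both partners in both media. All 5 were called for Sox2 after 3 passages as well. So were 78.7% of 24 h-only peaks in the first of 5 equal bins of the 24 h list. The nearest serum Sox2 summit was between 25315 and 191368 bp away, so none of them was a small displacement of a serum peak.

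Oct4 calls differed widely between the classes. Oct4 is the POU-domain partner of Sox2, and its lists have 1 sample per medium in the labels. An Oct4 peak in serum was called in 40.9% of shared regions, in 8.66% of the serum-only class and in 8.48% of the 24 h-only class. At 24 h the shares were 52.7, 6.80 and 26.0% in the same order. Serum-only Sox2 regions were thus poor in Oct4 in both media, and 24 h-only regions gained Oct4 calls. The Oct4 list was itself longer at 24 h, with 7533 against 4844 peaks. With the Oct4 lists at equal length, the share of 24 h-only Sox2 regions with Oct4 at 24 h was lower, at 16.0%, but still above their share in serum.

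With either antibody lot, Nanog was called in serum, at 24 h or in both at most Sox2 regions of every class. With the first antibody lot, a serum Nanog peak was called in 90.4% of shared regions, in 70.9% of the serum-only class and in 47.8% of the 24 h-only class. A 24 h Nanog peak was called in 94.0, 66.2 and 72.7% of them. In this lot each changed class therefore had more Nanog in the medium where Sox2 was called. With the second lot the serum list came from GFP-high cells, and it had Nanog in 86.5, 52.7 and 57.9% of these classes. The order of the changed classes in serum thus turned over between lots. At 24 h the second lot gave 74.5, 25.3 and 53.4%, the same order as the first.

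**Figure D2:**
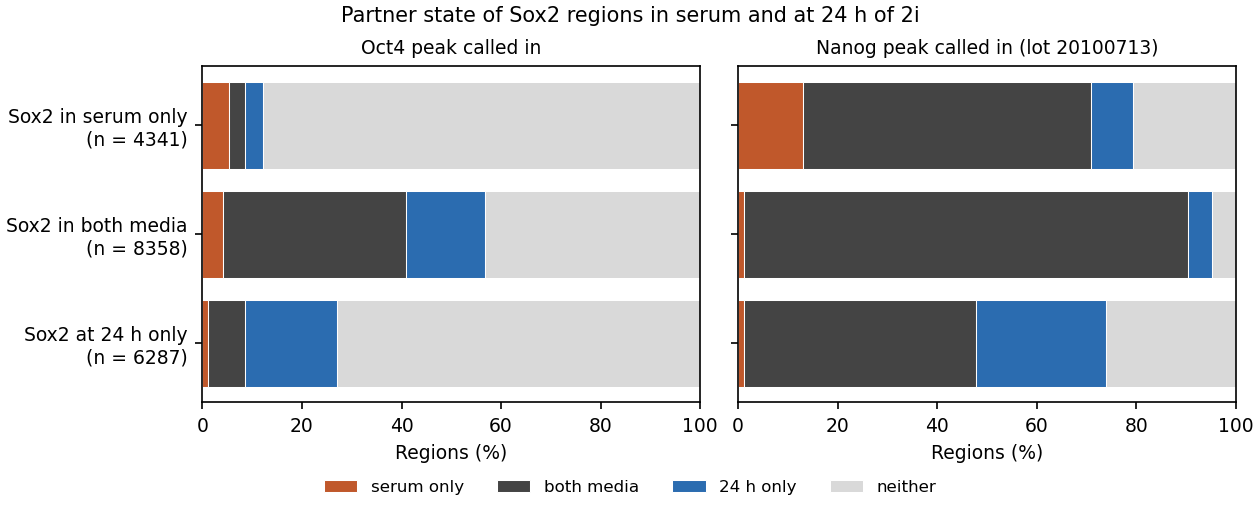
Stacked bars give the percent of Sox2 regions of each class (rows, with the number of regions) whose Oct4 peak (left) or Nanog peak of the first lot (right) was called in serum only, in both media, at 24 h only or in neither. Oct4 is called in neither medium at 87.8% of the top row, 43.2% of the middle row and 72.9% of the bottom row, and the blue part, a call at 24 h only, is widest in the bottom row of both panels.

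Taking Oct4 and Nanog together, the commonest state of a serum-only region was Nanog in both media without Oct4, with 2107 of 4341 regions (48.5%). That was also the commonest state of 24 h-only regions, with 1749 of 6287 (27.8%), and of shared regions, with 3075 of 8358 (36.8%). Shared regions had both partners in both media at 34.1%, against 2.76 and 5.47% in the serum-only and 24 h-only classes. Few changed regions changed with both partners at once. Both partners were called in serum only at 43 serum-only regions (0.991%). They were called at 24 h only at 270 24 h-only regions (4.29%), with longer Oct4 and Nanog lists at 24 h. The same states were found at 0.12% and 0.85% of shared regions. With every pair of lists at equal length the changed-region shares were 2.12% of 4760 and 1.86% of 4731 regions, so the imbalance did not remain. Shared regions then had 0.54% and 0.35%. With lists as deposited, the highest folds among these changed regions were at chr11:46102465-46103017 for serum, at 23.3, and at chr14:55071201-55071798 for 24 h, at 21.0.

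Oct4 calls often changed along with the Sox2 call. Of the serum-only regions with Oct4 in serum, 62.5% had no Oct4 at 24 h (235 of 376, interval 57.4 to 67.4%). The same was true of 10.1% of shared regions (345 of 3415) and of 19.8% of all serum Oct4 regions. Of the 24 h-only regions with Oct4 at 24 h, 71.8% had none in serum (1173 of 1634), against 30.3% of shared regions and 48.4% of all 24 h Oct4 regions. The match held in the stronger Oct4 peaks. In the upper 50% of the serum Oct4 list, 36.7% of peaks at serum-only Sox2 regions (33 of 90) had no 24 h Oct4 call. It was 3.20% at shared ones and 5.28% among all peaks of that part. In the upper 50% of the 24 h Oct4 list, 53.2% of peaks at 24 h-only regions were without a serum call. At shared ones it was 15.9%, and among all peaks of that part 25.1%. With all lists at equal length the figures were 78.1 against 20.4% for calls in serum without one at 24 h, and 61.1 against 21.0% for the reverse. Among all Oct4 regions they were then 33.0% in each direction. Oct4 also changed against Sox2 at some regions. Of 295 serum-only regions with Oct4 at 24 h, 154 (52.2%) had none in serum, which was above the shared regions and near the 48.4% of all 24 h Oct4 regions. At equal length it was 35.6%, against 33.0% of all. Of 533 24 h-only regions with Oct4 in serum, 72 (13.5%) had none at 24 h.

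Nanog calls of the first lot were kept at most changed regions that had them. The Nanog list held 24649 peaks in serum and 40448 at 24 h. Of serum-only regions with Nanog in serum, 18.5% had none at 24 h, against 1.39% of shared regions and 16.1% of all serum Nanog regions. Of 24 h-only regions with Nanog at 24 h, 36.0% had none in serum, against 5.18% of shared regions. Among all 24 h Nanog regions it was 49.1%, so new Nanog calls were not more frequent at 24 h-only Sox2 regions than in the whole Nanog list. With all lists at equal length, 36.6% of serum-only regions with Nanog in serum had none at 24 h, against 4.76% of shared and 31.4% of all serum Nanog regions. The reverse was 29.2% of 24 h-only, 2.63% of shared and 31.6% of all. At both lengths changed regions thus stood apart from shared ones more than from the Nanog list as a whole. With the second lot, 1301 of 2286 serum-only regions with Nanog in GFP-high serum cells (56.9%) had none at 24 h, as had 1155 of 7232 shared regions, against 40.9% of all regions of that list. The second-lot lists held 25403 peaks in GFP-high serum cells and 21188 at 24 h. At 24 h-only regions, 775 had second-lot Nanog in GFP-high serum cells only and 495 at 24 h only. At equal length these were 479 and 542, so their order depended on list length. New calls were 14.7% of the second lot's 24 h calls at 24 h-only regions, against 29.1% in all. At equal length they were 18.7 against 34.3%.

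Because Oct4 calls follow Sox2 strength, the classes were set side by side within 5 equal bins of the Sox2 list. A peak counted as meeting another list if its merged region did, and shared regions span the peaks of both media. Among serum peaks, those of serum-only regions met a serum Oct4 peak less often in every bin. The shares from the first to the last bin were 28.4, 14.8, 12.4, 6.01 and 5.96% for serum-only and 65.8, 41.8, 29.2, 22.3 and 18.4% for shared regions. Among 24 h peaks the classes were close in the upper 3 bins and apart in the lower ones. The shares were 76.7, 53.9, 36.5, 18.6 and 11.7% for 24 h-only and 82.1, 55.3, 34.8, 24.2 and 19.5% for shared regions. In the last bin the intervals were 10.4 to 13.1% and 16.7 to 22.5%. With all lists at equal length the first bin gave 31.5 against 66.0% in serum and 68.8 against 76.3% at 24 h. Within a bin the changed regions still ranked lower: in the first bin their median rank was 1981 against 1244 in serum, and 2035 against 1414 at 24 h.

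The Nanog calls of the first lot were closer between classes in the upper bins of both media. In the first bin 93.2% of serum-only and 97.1% of shared serum peaks met a serum Nanog peak, and in the last bin 60.0% and 81.4%. At 24 h the first bin gave 96.5% of 24 h-only and 98.4% of shared peaks, and the last bin 54.7% and 84.2%.

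**Figure D3:**
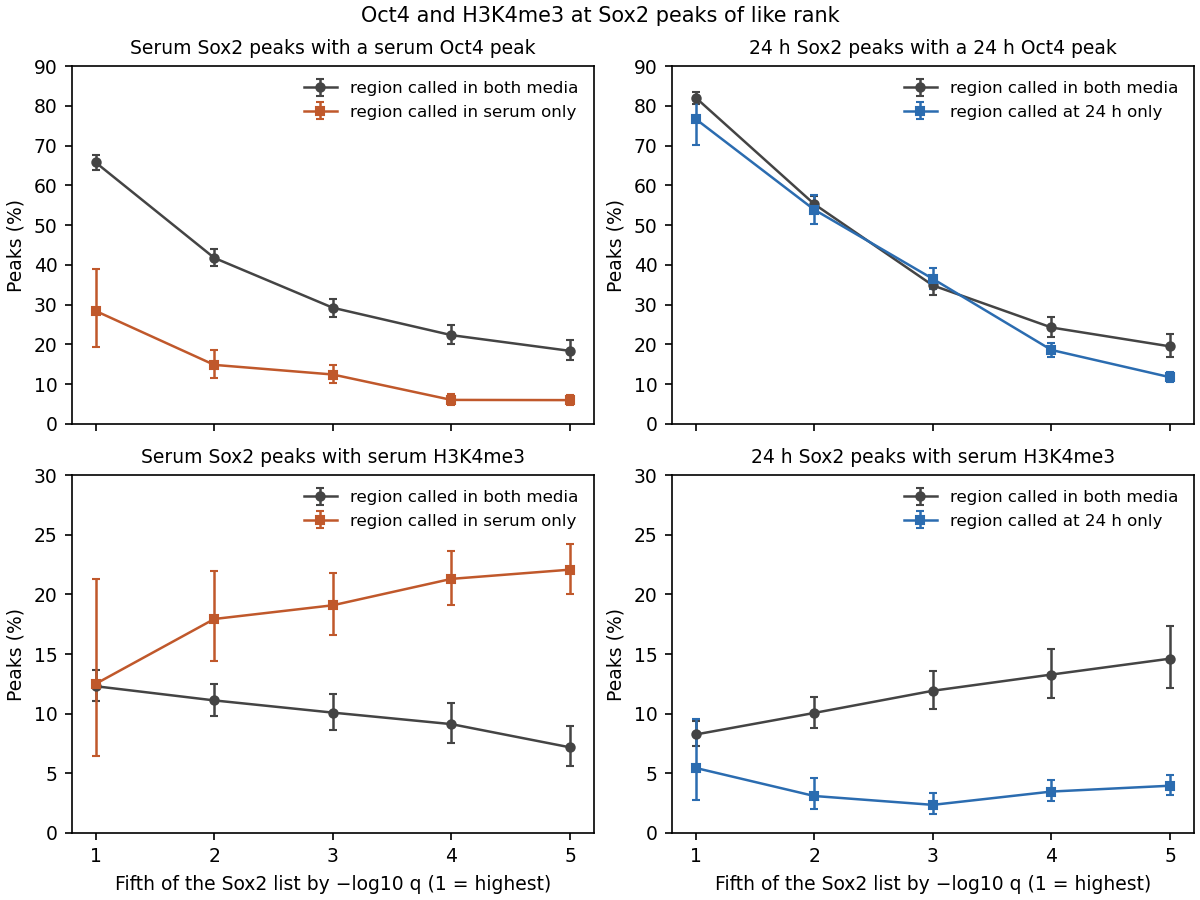
Percent of Sox2 peaks whose merged region overlaps an Oct4 peak of the same medium (top) or a serum H3K4me3 peak (bottom), for changed and shared regions. Peaks are split by bin of −log10 q within the serum list (left) and the 24 h list (right). Bars are 95% exact binomial intervals. The Oct4 curves lie apart in every bin in serum and close together in the upper 3 bins at 24 h. The H3K4me3 intervals overlap in the first bin of each list, and from the second bin on the curves lie apart in opposite directions.

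H3K4me3 was more frequent at serum-only and less frequent at 24 h-only regions than at shared ones. A serum H3K4me3 peak was called at 895 serum-only regions (20.6%, interval 19.4 to 21.9%), 879 shared regions (10.5%, 9.87 to 11.2%) and 215 24 h-only regions (3.42%, 2.98 to 3.90%). Both changed classes were narrower than the shared regions, and the part of width was not tested. Within bins of the serum list the excess was absent from the first bin, with 12.5% of 88 serum-only and 12.3% of 2455 shared peaks, and widened to 22.1 against 7.17% in the last. In the 24 h list, 24 h-only peaks were lower in each bin, from 5.45 against 8.25% in the first to 3.95 against 14.6% in the last.

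The mark itself was mostly stable at the serum-only regions. It was called in serum, at 24 h and after 3 passages at 15.6% of serum-only regions, 7.06% of shared ones and 2.32% of those called at 24 h only. Of marked serum-only regions, 22.1% had no H3K4me3 peak at 24 h, against 28.4% of marked shared regions and 26.6% of all serum H3K4me3 regions. So the Sox2 call ended at these places without a matching loss of the H3K4me3 call. The Sox2 summit lay inside the mark at 85.6% of marked serum-only regions and 65.4% of marked shared ones. The median distance from the Sox2 summit to the nearest serum H3K4me3 peak was 20415 bp for serum-only, 35182.5 bp for shared and 59940 bp for 24 h-only regions.

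Marked serum-only regions were weak and poor in partners. Their median fold enrichment was 6.69, against 8.23 for unmarked serum-only regions. Nanog in serum was called at 46.6% of them and at 77.2% of the unmarked, Oct4 in serum at 6.70% and 9.17%, and Sox2 after 3 passages at 6.93% and 14.0%. Nanog at 24 h, from a longer list, was called at 55.9% of the marked and 68.9% of the unmarked. Marked serum-only regions thus had more Nanog calls at 24 h than in serum, unlike the unmarked. Of the 697 serum-only regions with the mark in both media, chr3:19210137-19211001 had the highest fold, 22.5, with Nanog in both media, no Oct4, and Sox2 called again after 3 passages. Among 24 h-only regions with the mark in both media, chr12:58327098-58327703 had the highest fold, 13.8, with Nanog in both media and Oct4 at 24 h only.

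Some changed regions had no partner at all. Neither Oct4 nor Nanog of the first lot was called in either medium at 840 serum-only (19.4%), 1455 24 h-only (23.1%) and 228 shared (2.73%) regions. No peak of any of the 11 other lists was called at 399 serum-only (9.19%), 1175 24 h-only (18.7%) and 86 shared (1.03%) regions. The order of the changed classes depended on list length. With all lists at equal length, 24.7% of serum-only, 22.3% of 24 h-only and 4.11% of shared regions had neither partner. With the Sox2 lists alone at equal length, the 24 h-only share that met no other list was 11.4% and the serum-only share 8.84%. By fold enrichment, the highest partnerless regions were chr5:93334423-93335008 in serum, at 16.9, and chr8:19928248-19928662 at 24 h, at 10.6. By −log10 q they ranked 3239 and 4014, while chr15:96116836-96117404, at a fold of 16.8 in serum, ranked 2496. A pair of further 24 h-only regions, chr3:25428254-25428946 and chr3:25433170-25433813, lay side by side with the same fold, 9.67.

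Where Sox2 was called in both media the summits lay close together. Shared regions are those whose peaks overlap, so a peak that moved further would be counted among the changed regions instead. In the 8288 shared regions with 1 peak from each list, the serum and 24 h summits were a median of 27 bp apart (interval of the median 26 to 28 bp, quartiles 12 and 52 bp). Distances of up to 50 bp made up 73.4% and of up to 100 bp 93.0%. The summit at 24 h was downstream on the chromosome in 4081 regions, upstream in 4098 and at the same base in 109, so there was no common direction. Stronger peaks moved less: the median rose from 20 bp in the first of 5 bins of serum rank to 35 bp in the last. It was 24 bp with Oct4 in both media, 29 bp with Oct4 in neither, 30 bp with Oct4 in serum only and 26 bp with Oct4 at 24 h only.

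Distances between different lists, also taken where peaks overlap, give a scale for this. Overlapping Oct4 peaks of serum and 24 h had summits a median of 31 bp apart, and Nanog peaks of the first lot 22 bp. Within a medium, Sox2 and Nanog summits were 25 bp apart in serum and 31 bp at 24 h, and Sox2 and Oct4 summits 42 and 39 bp. The summit of Sox2 thus moved between media by about as much as it differed from Nanog within one medium. In serum-only regions the Sox2 to Oct4 distance was wider, at 60 bp (interval 49 to 70 bp, 376 regions) against 43 bp (41 to 44 bp) in shared regions, and 16.8% against 4.89% lay over 200 bp apart. In 24 h-only regions it was 43 bp, against 39 bp in shared ones.

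**Figure D4:**
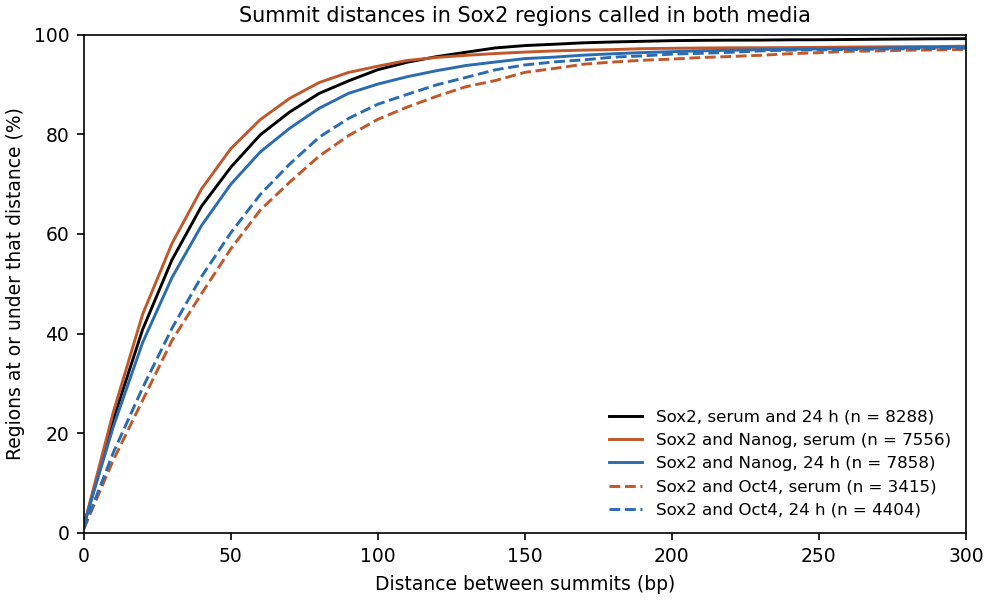
The cumulative percent of regions (vertical axis) whose summits lie within a given distance in bp (horizontal axis) is drawn for Sox2 between media and for Sox2 against each partner within a medium, in regions with Sox2 in both media. At 50 bp the black curve of Sox2 between media stands at 73.4%, Sox2 to Nanog at 77.1% in serum and 70.0% at 24 h, and Sox2 to Oct4 at 57.0% and 60.2%.

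A few shared regions did shift. Summits were over 200 bp apart in 98 regions (1.18%). The largest distances were 693 bp at chr4:141173195-141174448, 688 bp at chr7:91039956-91040975 and 624 bp at chr6:65714361-65715561. The first 2 carried H3K4me3 at every time point and no Oct4. At the last, Oct4 and Nanog were called in both media, and Sox2 rose from rank 6823 to 803 of the 8288. Few changed regions had a peak of the other medium close by: it had a summit within 1000 bp of 99 serum-only (2.28%) and 108 24 h-only (1.72%) regions. The median distance to it was 38260 bp and 59648 bp.

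Within the shared regions the order of strength was rearranged. Ranks by −log10 q among the same 8288 regions had a Spearman correlation of 0.58 between media, as a description over regions of 1 pair of lists. Of the 828 regions in the upper 10% in serum, 487 were in the upper 10% at 24 h. A move of over 50% of the ranks was made by 315 regions upward and 287 downward.

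These moves differed by Oct4 state. Regions with Oct4 at 24 h only rose by a median of 11.5% of the ranks, and 67.8% of the 1321 rose. Regions with Oct4 in serum only had a median change of −17.8%, and 21.9% of the 342 rose. With Oct4 in both media the median was 1.44% and with Oct4 in neither −5.38%. A region of high serum rank has more room to fall than to rise, so the states were also read within bins of serum rank. In the first bin the medians were −28.7% for Oct4 in serum only, −20.2% for neither, −2.92% for 24 h only and −1.93% for both. In the last bin they were 17.7, 10.6, 31.7 and 35.4%. In these 2 bins the sign of the median thus went with serum rank, and its level differed by Oct4 state. Within bins, the medians of regions with Oct4 at 24 h thus lay close together whether or not Oct4 had been called in serum.

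**Figure D5:**
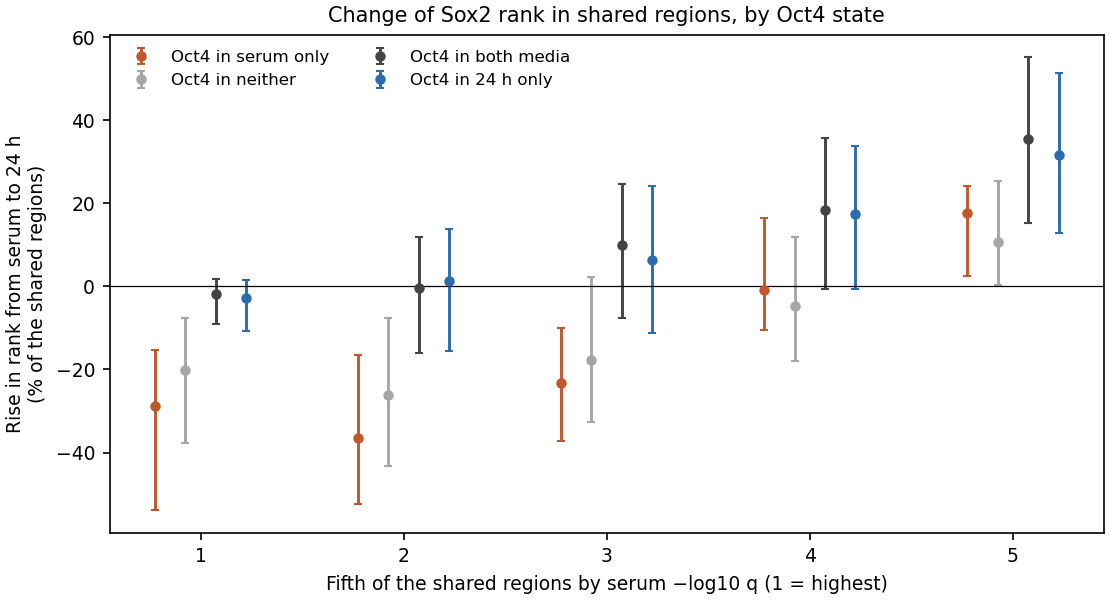
The change in Sox2 rank from serum to 24 h, in percent of the 8288 shared regions (positive is a rise), is plotted by bin of serum rank and Oct4 state, with points at the median and bars from the lower to the upper quartile. In every bin the states with Oct4 at 24 h lie above the states without it, for example −1.93% and −2.92% against −20.2% and −28.7% in the first.

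Regions with H3K4me3 fell in rank more often than they rose. With H3K4me3 in both media the median change was −7.60% of the ranks and 32.4% of 618 regions rose, and with the mark in serum only it was −7.30%. Regions without the mark had a median of 0.64%, and 51.6% rose. In the first bin of serum rank these differed little, at −4.49% with the mark in both media and −4.69% without it, and in the second they were −20.6% and −8.07%. In the last bin they were 7.72% and 18.2%, and 69.1% and 82.9% of the regions rose. By Nanog state of the first lot the medians were −9.18% with Nanog in serum only, 1.71% at 24 h only and 0.01% in both.

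The largest rise was at chr12:75904715-75905670, from rank 7923 to 622 of 8288, with fold enrichments of 6.93 in the serum list and 23.5 in the 24 h list. Next were chr14:82866358-82867062, from 7725 to 465, chr3:115392925-115393367, from 8162 to 939, chr2:98505040-98505529, from 8266 to 1053, and chr5:102798436-102799067, from 8010 to 802. All 5 carried Nanog in both media, as did 4 of the 5 that fell furthest and 89.1% of all shared regions. Oct4 was called in both media at 3 of the 5 that rose, and at 36.7% of all shared regions. The chr2 region lies where ChIP-seq experiments in mouse cells commonly show very high signal. The largest fall was at chr10:127975269-127975872, from rank 920 to 8282, with fold enrichments of 29.2 in serum and 4.42 at 24 h and no Oct4. It was followed by chr5:28502887-28503602, from 817 to 8170, and chr2:121096015-121096772, from 330 to 7674. The 2 remaining were chr10:84218338-84219336, from 1073 to 8077, with both partners in serum only, and chr17:85886183-85886736, from 561 to 7462.

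For comparison, the most significant shared region in serum was chr3:121848176-121849043, with a fold enrichment of 43.8 in serum and 44.5 at 24 h. It ranked 1 in the serum list and 7 in the 24 h list. The second in serum, chr11:34552201-34553013, had a fold of 68.9 in serum and 23.7 at 24 h, and ranked 483 at 24 h. Both carried Oct4 and Nanog in both media.

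The Sox2 list made after 3 passages in 2i, which has 1 sample in the labels and 8480 peaks, held most shared regions and few of the changed ones. Sox2 was called there at 70.3% of shared regions, 19.8% of the 24 h-only class and 12.6% of the serum-only class. Partner calls went with the later call. Among 24 h-only regions it was present at 32.6% of those with Oct4 at 24 h only, 38.0% with Oct4 in both media and 14.8% with Oct4 in neither. With Nanog in neither medium it was 4.27%. Rank went with it too: in the first of 5 bins 78.7% of 24 h-only peaks and 45.5% of serum-only peaks (40 of 88) were called after 3 passages, and in the last bin 6.72% and 7.65%. A part of the strongest serum-only regions was therefore without a call at 24 h but with one later.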

How the data were processed

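Sox2, Oct4, Nanog and H3K4me3 ChIP-seq peak lists were used, 13 of the 14 in the series. Per the submitters' processing notes, BWA 0.5.7, Bowtie 0.12.7 and MACS2 were among the tools and mm9 was the build. The aligner behind each list and the selection of peaks are not given in the sources used here. For each peak the authors deposited a fold enrichment, a ratio over the control, a q-value as −log10 q, and the offset of its summit, which give strength, rank and position. Sox2 samples are labelled as RNA, but have an antibody and a peak list, and were treated as ChIP-seq.

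From these files the merging at 1 bp, the ranks and the shares were computed with Python 3.11.15, pandas 2.3.3 and SciPy 1.17.1. Intervals are 95% exact binomial (Clopper-Pearson), or order-statistic intervals of a median, and cover counting error only. A partner was called at a region if 1 of its peaks overlapped by at least 1 bp. The code was checked on simulated peaks. The named regions are the 5 changed regions of each class with the largest −log10 q, the 3 highest folds in each of 4 partner or mark states, of which some are printed, and the largest rank moves and summit distances; 2 top shared regions were added after their values were seen. The members and rules were chosen with earlier results of these data known. Coordinates are 1-based mm9. Gene tables of another assembly, GRCm38.p6, were not used, so regions carry no gene names or sequences. Peaks on X, Y and unplaced contigs were left out.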

Additional observations from a re-analysis of the deposited data

Results flagged for a closer look

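Peaks outside the chromosomes compared were set aside and are given as values. On chromosome X the serum Sox2 list held 404 peaks and the 24 h list 565. On chromosome Y the serum list held 12 and the 24 h list 42, while the list after 3 passages held 0. The 24 h list held 0 peaks on unplaced contigs and the serum list 3. The 2 Nanog lists of the first lot in serum and at 24 h held 21 and 26 peaks on Y, and the Oct4 lists 0. What part differences in processing have in these counts was not tested.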

How the results depend on the processing

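Of 67 values recomputed for 9 results under 9 settings, 46 stayed close to the reported value and 21 moved. With a minimum −log10 q of 10, 5464 regions were shared, 7236 were in serum only and 1285 at 24 h only. Serum H3K4me3 was then at 17.6% of serum-only regions, serum Oct4 at 13.0% of them and 24 h Oct4 at 54.3% of 24 h-only regions; the median summit distance was 23 bp and retention of the top 1000 serum peaks was 96.8%. Under the serum list's lowest −log10 q for both lists these values were 3716, 8985, 436, 16.1%, 16.9%, 69.3%, 22 bp and 93.6%. Both limits shorten the 24 h list by construction. At equal length 24 h Oct4 was at 31.4% of 24 h-only regions; at equal length by fold, serum H3K4me3 was at 2.40% of 24 h-only and serum Oct4 at 10.3% of serum-only regions. With the Oct4 lists at equal length, 24 h Oct4 was at 16.0% of 24 h-only regions, and with the 24 h H3K4me3 list in place of the serum one, H3K4me3 was at 16.6% of serum-only regions. In every setting run, H3K4me3 was more frequent at serum-only than at 24 h-only regions, and 24 h-only regions had the higher Oct4 share. No paired analysis was possible because each condition has 1 list and the lists carry no replicate number, and leaving out a replicate could not be run for the same reason. Read depth is unknown, so weak binding below a list's threshold cannot be told from none.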
